A study of Mus musculus with 10 samples.

Results

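Live epithelial cells of the stomach corpus were compared between a fraction labelled Iqgap3-high (IQ3pos) and a fraction labelled Iqgap3-low or negative (IQ3neg) in mice with the normal Runx3 gene (WT). All genes listed above 0 in at least 2 of the 6 WT libraries were taken, which were 15820 of the 55276 genes of the deposited table. The mice were C57BL/6, aged 6 to 8 weeks, and all carried Iqgap3-2A-tdTomato, an allele that makes the red protein tdTomato from the Iqgap3 transcript. Their genotypes were Runx3 WT;Iqgap3-2A-tdTomato or Runx3 R122C;Iqgap3-2A-tdTomato, R122C being a change in the RUNX3 transcription factor. Cells bearing EpCAM, a surface protein of epithelia, and excluding the dye DAPI were sorted by tdTomato, the positive cells being IQ3pos and the negative cells IQ3neg. There were 3 libraries each of WT IQ3pos and WT IQ3neg and 2 each of R122C IQ3pos and R122C IQ3neg. Each library was a pool of 3 mice, except both WT replicate 2 libraries, which were pools of 4, so animals within a pool cannot be told apart. The IQ3pos and IQ3neg libraries of a WT replicate shared a code in their titles, and a difference within replicate pair 1, 2 or 3 is the IQ3pos value minus the IQ3neg value of that replicate.

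The corpus gland is renewed from dividing cells of its isthmus, which give rise to mucous surface pit cells above and to acid-secreting parietal cells, mucous neck cells and enzyme-secreting chief cells below. Hormone-secreting endocrine cells and chemosensory tuft cells are scattered among them. Iqgap3 encodes a scaffold protein bound by small GTPases and is known as a gene of proliferating cells. The sort by its reporter is meant to set cells that make the transcript apart from cells that make little of it. A cell that divides must copy its DNA and chromatin, pack the copied chromosomes with condensin, attach them to the spindle through kinetochores and pinch apart by cytokinesis, and each step has its own set of genes.

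Levels were log2 CPM, read counts scaled by the size of their library, and the table lists every gene below 1 CPM at 0. Iqgap3 (GRCm38 chromosome 3, 88081971 to 88121048) reached 3.16 in WT IQ3pos replicate 2 and stood at 0 in the other 5 WT libraries, so its own transcript did not separate the fractions and their names rest on the reporter. Epcam was high in both, at 8.82, 8.95 and 8.95 in IQ3pos and 7.64, 8.74 and 9.02 in IQ3neg (difference 0.44, limma adjusted p = 0.533). Totals recovered from the value steps spanned 47.4 M to 265 M reads a library, with both WT replicate 1 libraries the shallowest. WT IQ3neg replicate 1 stood apart, with 57.7% of its listed reads on 10 genes, where WT IQ3neg replicates 2 and 3 had 25.02% and 25.4%. The median level of 7404 genes above 0 in all 10 libraries was 4.20 in it, against 5.32 and 5.27 in WT IQ3neg replicates 2 and 3 and 5.30, 5.50 and 5.51 in WT IQ3pos. Setting all libraries to the same median, with values listed at 0 kept at 0, moved the WT difference of genes without a listed 0 down by 0.51. That was on the log2 scale, and it brought Epcam to -0.07. Differences of broadly expressed genes are to be read against that shift.

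In WT, 144 genes were higher in IQ3pos and 281 were lower (limma, moderated over all genes, Benjamini-Hochberg adjusted p under 0.05). These were 0.91% and 1.78% of the genes tested. The 144 higher genes differed by 1.40 to 5.04 on the log2 scale, with a median of 2.74, and 119 of them were above 0 in all 6 libraries. Of the 281 lower genes, 160 were listed at 0 in all 3 IQ3pos libraries, and the 53 above 0 in all 6 had a median difference of -3.73. A difference against a listed 0 rests on the 1 CPM floor, so such genes are given by their library values and without a fold. The median difference of all 15820 genes was 0.21, and that of the 8057 genes above 0 in all 6 libraries was 0.49. With the libraries set to the same median, 197 genes were higher and 610 lower, and among genes above 0 in all 6 libraries 187 were higher and 216 lower. Values listed at 0 stayed at 0 in that scaling while the others moved, so the count of 610 depends on the floor too. Each of the 425 differences had the same sign in all 3 replicate pairs. The genes were called on these same libraries, so that agreement largely follows from the choice and is no separate support. The count hung on single libraries: without IQ3pos replicate 1, 2 or 3 it was 105, 44 and 19 higher and 169, 92 and 92 lower. Without IQ3neg replicate 1, 2 or 3 it was 104, 34 and 248 higher and 338, 93 and 286 lower. Of the called genes, 8 higher and 61 lower passed in all 6 of these leave-one-out fits. In RNA from sorted pools, fewer cells of a type and less RNA per cell cannot be told apart.

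Of 39 gene lists of cell processes and cell types, those with the highest medians in the plot of list medians, from spindle genes (3.30) down to recombination and fork repair (2.21), were lists of cell division. The pit cell list came next at 2.03, above the remaining lists of cell division. Across 10 cell division lists without the inhibitors, 52 of 187 genes were higher and 0 lower, and 135 did not pass. Their median difference was 2.28, and 181 of the 187 differences were above 0. The median of all genes tested was itself above 0, at 0.21, and their shares above and below 0 in WT were not counted. Across 5 endocrine lists, 28 of 79 genes were lower and 0 higher, with a median of -2.50 and 74 differences below 0. Many endocrine genes were at 0 in IQ3pos, such as 16, 15 and 16 of 21 peptide hormone genes in replicates 1, 2 and 3. In IQ3neg these were 10, 8 and 10. Such genes were kept mainly through IQ3neg, which favours differences below 0. The lists were chosen with earlier results of these data known, so their counts are no independent support. Together the 39 lists held 66 of the 144 higher and 58 of the 281 lower genes.

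**Figure D1:**
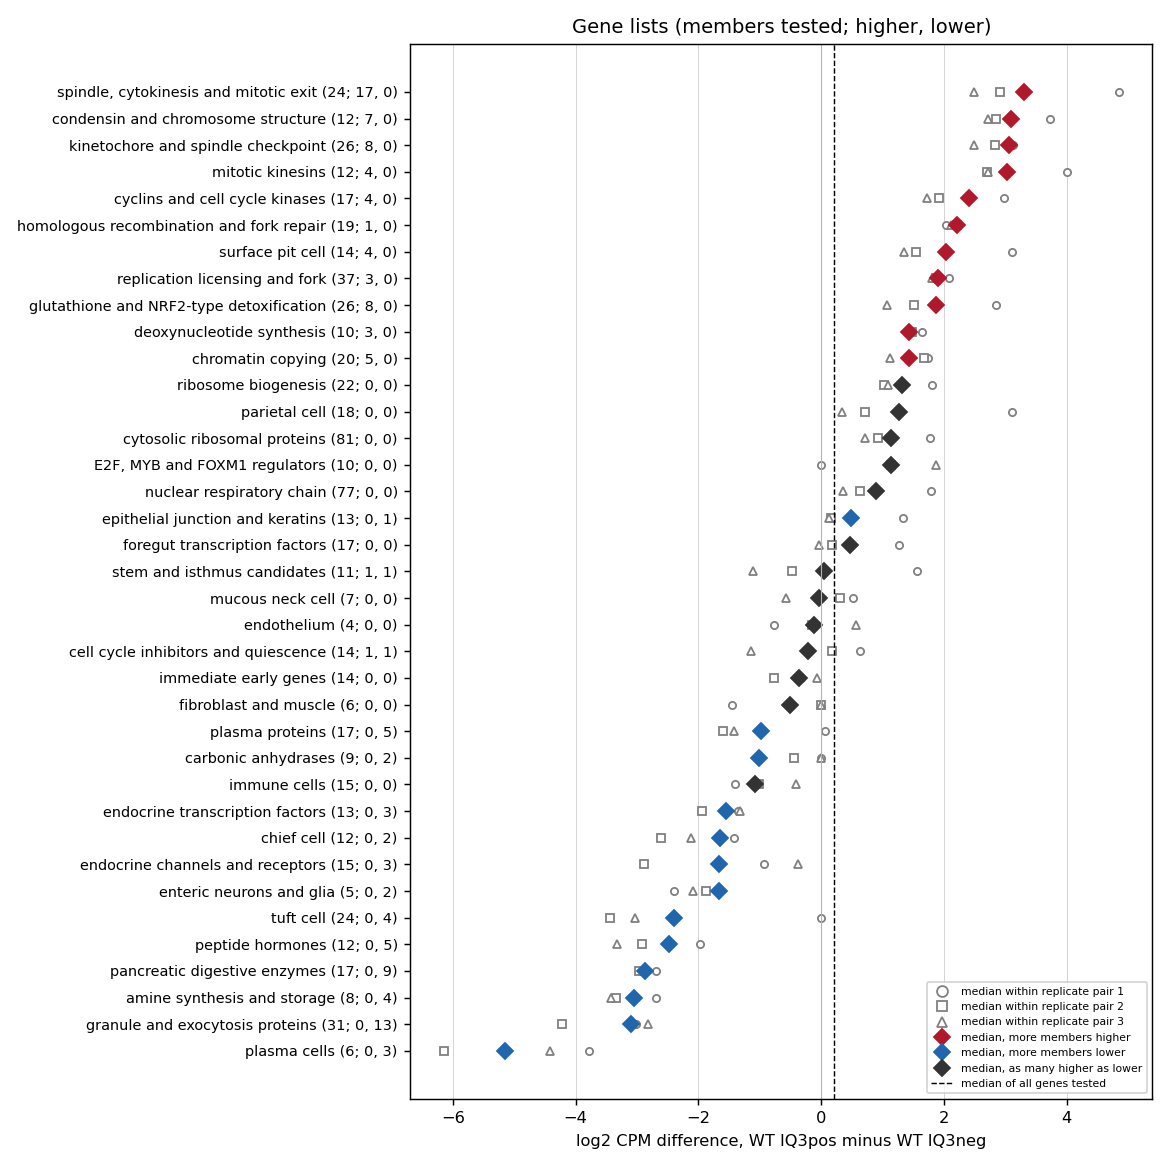
Median log2 CPM difference of each gene list, WT IQ3pos minus WT IQ3neg (x axis), with the median within each replicate pair as open symbols; the numbers after a list's name are its members tested, higher and lower. Spindle genes lie highest at 3.30 and plasma cell genes lowest at -5.15, and the dashed line marks the median of all genes at 0.21.

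Genes that pack and hold chromosomes were higher in IQ3pos. Of 12 genes of condensin and chromosome structure, 7 rose and 5 did not pass, with a median difference of 3.10. Smc2 (GRCm38 chromosome 4, 52439243 to 52488260) encodes an ATPase arm shared by condensin I and II. Its log2 CPM was 7.06, 7.52 and 7.87 in IQ3pos and 2.59, 3.04 and 4.67 in IQ3neg. Every IQ3pos library stood above every IQ3neg library, and IQ3neg replicate 3 was the highest of its fraction. The means were 7.48 ± 0.404 (SD, n = 3) and 3.43 ± 1.10, a log2 difference of 4.05 ± 0.544 (SE) or 16.6-fold (limma adjusted p = 0.00197). Smc4 (chromosome 3, 69004738 to 69034623), its partner arm, stood at 7.72, 7.75 and 8.19 against 3.81, 5.30 and 5.15. Its fractions did not overlap either, and it rose by 3.13 ± 0.436, or 8.74-fold (limma adjusted p = 0.00254). The condensin I subunits Ncapg and Ncaph rose as well. Ncapg was at 5.36, 6.25 and 7.09 against 1.54, 2.26 and 2.68 (16.9-fold, limma adjusted p = 0.0141), and Ncaph at 6.40, 7.27 and 6.05 against 0, 3.72 and 3.64 (limma adjusted p = 0.0274). The condensin II subunits Ncapd3, Ncapg2 and Ncaph2 and the condensin I subunit Ncapd2 did not pass. Cdca5, which encodes sororin, the protein that keeps sister chromatids held together, stood at a mean of 6.41 ± 0.517 against 3.34 ± 0.345, without overlap (8.37-fold, limma adjusted p = 0.0101). Esco2, the acetyltransferase that locks cohesin, was at 6.42, 7.43 and 7.92 against 0, 4.75 and 4.51. Smc2 and Smc4 passed in all 6 leave-one-out fits. Ncapg, Ncaph and Esco2 did not pass without IQ3pos replicate 2 (adjusted p of 0.074, 0.124 and 0.145), IQ3pos replicate 3 (0.09, 0.0906 and 0.162) or IQ3neg replicate 2 (0.0584, 0.0518 and 0.0579). Ncaph and Esco2 also did not without IQ3pos replicate 1 (0.0755 each), nor Cdca5 without IQ3pos replicate 2 (0.061). Without IQ3pos replicate 2, IQ3pos replicate 3 or IQ3neg replicate 2, the list kept 3, 4 and 4 calls.

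**Figure D2:**
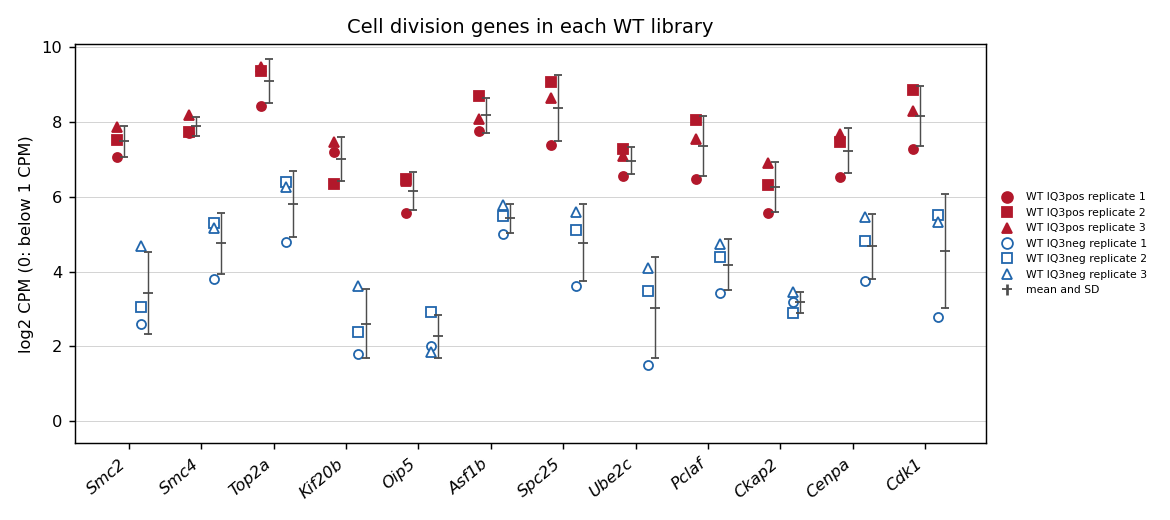
Log2 CPM (y axis) of 12 cell division genes in each WT library, IQ3pos filled and IQ3neg open, with a symbol shape for each replicate; bars are the mean and SD (n = 3). For each gene the 3 IQ3pos libraries lie above the 3 IQ3neg libraries, and Smc2 lies at 7.06 to 7.87 against 2.59 to 4.67.

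Motors and chromosome attachment followed the same direction. Of 12 mitotic kinesins, 4 rose, 8 did not pass and all 12 differences were above 0, with a median of 3.03. Kif20b (chromosome 19, 34922361 to 34975745), a motor of late cytokinesis, was at 7.20, 6.35 and 7.47 in IQ3pos and 1.80, 2.38 and 3.61 in IQ3neg. The fractions lay far apart, by 4.41 ± 0.550 or 21.2-fold (limma adjusted p = 0.0013). Cenpe, the kinetochore motor that carries chromosomes to the spindle equator, was at 6.51, 6.18 and 6.10 against 2.11, 3.92 and 4.60 (6.59-fold, limma adjusted p = 0.0334). Kif11, the motor that separates spindle poles, was at 4.45, 6.96 and 7.14 against 0, 3.77 and 3.47 and did not pass (limma adjusted p = 0.0535, and 0.00597 with the replicate pair as a block). Of 26 kinetochore and checkpoint genes, 8 rose (Bub1, Spc24, Spc25, Cenpa, Cenpf, Cenpk, Sgo1 and Dsn1), none fell, and 22 had IQ3pos wholly above IQ3neg. Such separation held for 14.3% of all genes tested. Spc25 (chromosome 2, 69193895 to 69206194), a subunit of the NDC80 complex that grips microtubules, was at 7.38, 9.07 and 8.66 against 3.62, 5.12 and 5.59. That was a 12.1-fold difference without overlap (limma adjusted p = 0.00518). Its complex partners differed as follows: Spc24 rose 6.45-fold (limma adjusted p = 0.0126), while Ndc80 (difference 3.19) and Nuf2 (3.43) had adjusted p of 0.0881 and 0.058, Nuf2 reaching 0.0196 with the replicate pair as a block. Cenpe did not pass without IQ3pos replicate 1, 2 or 3 or IQ3neg replicate 2 (adjusted p of 0.0947, 0.107, 0.111 and 0.0826). Spc25 did not without IQ3pos replicate 2 (0.0521), nor did Spc24 without IQ3pos replicate 2 or 3 (0.072 and 0.0728). Without IQ3pos replicate 2, IQ3pos replicate 3 or IQ3neg replicate 2, the kinesins kept 1 of their calls each time and the kinetochore list 0, 1 and 4 of its 8, Nuf2 being called in addition without IQ3neg replicate 2. The kinetochore list also kept 5 without IQ3pos replicate 1 or IQ3neg replicate 1. With the replicate pair as a block, 8 kinesins and 12 kinetochore genes passed.

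Genes that renew the centromere mark were higher in IQ3pos, a grouping made after their values were seen. CENP-A, the histone H3 variant that marks centromeres, is reloaded after each division by the Mis18 complex and the chaperone HJURP. Oip5 (chromosome 2, 119609512 to 119618469), also known as Mis18-beta, was at 5.57, 6.48 and 6.42 in IQ3pos and 2.02, 2.92 and 1.85 in IQ3neg. The fractions were separated by 3.90 ± 0.558 or 14.9-fold (limma adjusted p = 0.00303), and the gene passed in all 6 leave-one-out fits. Oip5 lies head to head with Nusap1, and their starts overlap on opposite strands. Mis18a (chromosome 16, 90719312 to 90727404) was at 4.94, 6.36 and 6.33 against 2.29, 2.84 and 3.54 (limma adjusted p = 0.0182). Cenpa itself was at 6.54, 7.48 and 7.70 against 3.75, 4.81 and 5.45, a 5.93-fold difference (limma adjusted p = 0.0187). None of these overlapped between the fractions. Hjurp did overlap, at 4.86, 5.09 and 1.87 against 2.50, 2.85 and 3.37 (limma adjusted p = 0.626). Mis18a and Cenpa did not pass without IQ3pos replicate 2 (adjusted p of 0.0817 and 0.0859), IQ3pos replicate 3 (0.09 and 0.0932) or IQ3neg replicate 2 (0.0606 and 0.0619).

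Of 24 spindle and cytokinesis genes 17 rose, with a median of 3.30. Within replicate pairs 1, 2 and 3 the median was 4.85, 2.90 and 2.49, the first resting on IQ3neg replicate 1. Its place above the other lists rested on that pair: without both replicate 1 libraries the median was 2.63, against 2.86 for condensin and 2.78 for kinetochore genes, and without IQ3neg replicate 1 it was 2.36, against 2.64 for condensin. Ube2c, the ubiquitin-conjugating enzyme of the anaphase-promoting complex, was at 6.57, 7.27 and 7.08 in IQ3pos and 1.51, 3.47 and 4.10 in IQ3neg (15.4-fold, limma adjusted p = 0.00713). Prc1, which bundles the microtubules of the midzone, was at 6.23, 8.50 and 7.46 against 0.81, 4.09 and 3.95 (21.9-fold, limma adjusted p = 0.0168). Ckap2 (chromosome 8, 22168160 to 22185819), a spindle microtubule protein, was at 5.57, 6.33 and 6.90 against 3.18, 2.89 and 3.45 (8.51-fold, limma adjusted p = 0.00953). In all of these, IQ3pos lay wholly above IQ3neg. The other members called were Anln, Ect2, Racgap1, Cit, Cep55, Cdc20, Aurkb, Birc5, Incenp, Cdca8, Nusap1, Ckap2l, Aspm and Mki67. Among cyclins and kinases 4 of 17 rose, namely Cdk1, the kinase that starts mitosis, with its cyclins Ccnb1 and Ccna2, and the S phase cyclin Ccne2. Cdk1 (chromosome 10, 69335146 to 69352938) was at 7.29, 8.87 and 8.31 against 2.78, 5.52 and 5.33 (12.2-fold, limma adjusted p = 0.0126). The D cyclins, which act in early G1, did not pass: Ccnd1 differed by 0.59, Ccnd2 by -0.06 and Ccnd3 by -1.11. Without IQ3pos replicate 2, IQ3pos replicate 3 or IQ3neg replicate 2 the spindle list kept 0, 0 and 7 calls, and the cyclins and kinases 0, 0 and 1. Without IQ3pos replicate 1 the latter kept 2, and without IQ3neg replicate 3 they had 7. With the replicate pair as a block, 21 spindle genes and 7 cyclins and kinases passed. Ube2c, Prc1 and Cdk1 did not pass without IQ3pos replicate 2 (adjusted p of 0.057, 0.0973 and 0.0841) or 3 (0.0509, 0.0867 and 0.076), nor did Ckap2 (0.0521 and 0.0598).

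Inhibitors of the cycle did not move as a group. Of 14 inhibitor and quiescence genes, Rbl1 rose and Trp53inp1 fell, and the median was -0.22, or 0.03 without IQ3pos replicate 3. Rbl1 encodes p107, a pocket protein that represses E2F targets and is itself made in cycling cells. It was at 5.13, 5.62 and 6.20 in IQ3pos and 2.39, 2.49 and 3.08 in IQ3neg, without overlap (7.99-fold, limma adjusted p = 0.0126). It did not pass without IQ3pos replicate 2 or 3 or IQ3neg replicate 2 (adjusted p of 0.0543, 0.0749 and 0.0503), nor did Trp53inp1 without IQ3pos replicate 3 or IQ3neg replicate 2 (0.0534 and 0.064). Cdkn1b, encoding p27, differed by 0.56 (limma adjusted p = 0.424), and the anti-proliferative gene Btg1 by -1.08 (0.113, and 0.0257 with the libraries set to the same median). None of 10 E2F, MYB and FOXM1 regulator genes passed in limma (median 1.13). The list had 2 calls and a median of 1.71 without IQ3pos replicate 1, a median of 0.63 without IQ3pos replicate 2 and of 0.74 without IQ3neg replicate 1, and 1 call with the replicate pair as a block.

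Genes of DNA copying gave few calls. Of 37 genes of replication licensing and the fork, 3 rose and 34 did not pass, with a median difference of 1.90. The 3 were Gmnn, the licensing inhibitor geminin, Lig1, the ligase of lagging-strand fragments, and Dbf4, the activator of the origin-firing kinase. Gmnn was at 6.72, 5.90 and 6.45 in IQ3pos and 3.09, 3.15 and 4.53 in IQ3neg (6.80-fold, limma adjusted p = 0.0176). Pcna, the sliding clamp, was at 7.20, 7.94 and 8.20 against 5.10, 6.47 and 6.64 and Mcm5, a helicase subunit, at 4.53, 5.93 and 5.90 against 3.28, 3.48 and 3.43. Neither of these overlapped between the fractions, and neither passed (limma adjusted p = 0.0693 and 0.0598), though Pcna did with the replicate pair as a block (0.0241). With the replicate pair as a block, 12 of the 37 passed. Without IQ3pos replicate 2 or 3, no gene of this list passed, and without IQ3neg replicate 1 or 2, 1 did. Without IQ3pos replicate 1, none of the 3 passed and 3 others did (Fen1, Mcm5 and Prim1). Gmnn had adjusted p of 0.0522 and 0.0811 without IQ3pos replicate 2 and 3, 0.0595 without IQ3pos replicate 1 and 0.0676 without IQ3neg replicate 2. Of 10 deoxynucleotide synthesis genes 3 rose (Rrm1, Rrm2 and Tyms), and of 19 recombination and fork repair genes Brip1, a helicase partner of BRCA1. Brip1 was at 2.90, 4.76 and 5.46 in IQ3pos and 0, 0.11 and 0 in IQ3neg (limma adjusted p = 0.0295). The deoxynucleotide list kept 0 calls without IQ3pos replicate 2 or 3 and 1 without IQ3neg replicate 2. Brip1 did not pass when IQ3pos replicate 2 or 3 or an IQ3neg library was left out (adjusted p of 0.0598 to 0.108). The recombination list had 2 calls without IQ3pos replicate 1 and 2 with the replicate pair as a block.

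Chromatin copying gave 5 calls among 20 genes. Asf1b (chromosome 8, 83955507 to 83970197) encodes the histone chaperone of dividing cells that hands new H3 and H4 to the fork. Its log2 CPM was 7.77, 8.69 and 8.09 in IQ3pos and 5.01, 5.50 and 5.77 in IQ3neg. The fractions did not overlap, and the difference of 2.76 ± 0.401, or 6.77-fold, passed in all 6 leave-one-out fits (limma adjusted p = 0.00348). Hells, a remodeller linked to DNA methylation, was at 6.42, 6.73 and 7.12 against 1.81, 4.01 and 4.76 (limma adjusted p = 0.0224). Lmnb1, encoding the nuclear lamina protein lamin B1, was at 4.84, 5.18 and 5.26 against 0, 1.27 and 1.68 (limma adjusted p = 0.0182). The polycomb methyltransferase gene Ezh2 and the chromatin protein gene Hmgb2 also rose. Pclaf, whose product binds the PCNA clamp, rose 9.07-fold from 3.42, 4.39 and 4.74 to 6.48, 8.05 and 7.56 (limma adjusted p = 0.00786). Without IQ3pos replicate 2 or 3, Hells (adjusted p of 0.0918 and 0.108), Lmnb1 (0.074 and 0.0836) and Pclaf (0.0582 and 0.054) did not pass. Hells and Lmnb1 also did not pass without IQ3neg replicate 2 (0.0606 and 0.0546), nor did Hells without IQ3pos replicate 1 (0.0522). Without IQ3pos replicate 1, 2 or 3 or IQ3neg replicate 2, the list kept 3, 1, 1 and 1 calls.

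Genes of growth rather than division gave no calls. None of 81 cytosolic ribosomal protein genes, 22 ribosome biogenesis genes or 77 nuclear genes of the respiratory chain passed in either direction in limma. Their medians were 1.14, 1.31 and 0.90, against 0.49 for the genes above 0 in all 6 libraries. The difference was above 0 for 81, 19 and 76 of them, a share that was not counted over all genes in WT. IQ3pos lay wholly above IQ3neg for 72, 8 and 57, against 14.3% of all genes tested. The ribosomal protein median was 1.78, 0.92 and 0.71 within replicate pairs 1, 2 and 3. With the replicate pair as a block, 3 ribosomal protein and 3 ribosome biogenesis genes passed, and without IQ3neg replicate 3, 3 ribosomal protein, 2 ribosome biogenesis and 1 respiratory chain gene did.

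The promoters of genes called in IQ3pos were read for letter runs known from cell cycle genes. CCAAT, which the factor NF-Y binds, reads ATTGG when it lies on the other strand. TTTGAA, which reads TTCAAA when it lies on the other strand, is the letter run of the cell cycle homology element bound by complexes such as DREAM. Both were searched on both strands in the 200 bases before the start in RefSeq promoter windows, which matched 10724 of the 15820 genes. The promoters of Smc2 (GRCm38.p6, chr4:52439021-52439220, + strand), Top2a (chr11:99024190-99024389, - strand) and Ckap2 (chr8:22185820-22186019, - strand) are shown because these genes were called in IQ3pos and hold both letter runs, which are in capitals.
Smc2: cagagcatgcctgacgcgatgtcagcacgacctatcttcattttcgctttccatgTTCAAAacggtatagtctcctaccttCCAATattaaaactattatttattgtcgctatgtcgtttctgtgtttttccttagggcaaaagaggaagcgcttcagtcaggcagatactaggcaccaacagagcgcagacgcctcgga
Top2a: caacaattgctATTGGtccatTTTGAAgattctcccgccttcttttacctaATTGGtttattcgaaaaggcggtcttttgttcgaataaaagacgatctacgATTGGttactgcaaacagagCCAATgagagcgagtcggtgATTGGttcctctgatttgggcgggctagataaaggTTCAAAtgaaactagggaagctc
Ckap2: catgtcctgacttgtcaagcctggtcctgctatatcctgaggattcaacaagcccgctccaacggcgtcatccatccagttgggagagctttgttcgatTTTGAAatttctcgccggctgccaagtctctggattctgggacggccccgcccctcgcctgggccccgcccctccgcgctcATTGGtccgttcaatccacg

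CCAAT was present in 62.0% of the 50 windows of called cell division genes, in 51.8% of the 137 windows of cell division genes that did not pass and in 31.6% of all 13701 windows. Here the cell division genes include the inhibitor and quiescence list. TTTGAA was present in 32.0%, 19.7% and 8.37%, and both runs in 28.0%, 13.1% and 2.86%. Among all genes higher in IQ3pos, 50.4% of 121 windows held CCAAT and 24.0% held TTTGAA. Among genes lower in IQ3pos, 26.2% of 267 windows held CCAAT, 11.6% TTTGAA and 2.25% both. Both runs occurred together in 14 windows of the called cell division genes and in 0 of the 32 windows of the called endocrine genes. CCAAT and TTTGAA on the same strand shared a base in 5 of all windows, and overlaps of runs on opposite strands were not counted. A gene may have several windows, and a letter run is not evidence that a factor binds there.

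Genes of glutathione use and detoxification were higher in IQ3pos, outside the cell cycle. Of 26 such genes, 8 rose and 18 did not pass, none fell, and 20 had IQ3pos wholly above IQ3neg, against 14.3% of all genes. Their median was 1.87, and it was 2.84, 1.51 and 1.07 within replicate pairs 1, 2 and 3. Gsr (chromosome 8, 33652523 to 33698163), the reductase that regenerates glutathione, was at 7.58, 7.53 and 8.17 in IQ3pos and 4.24, 5.10 and 5.54 in IQ3neg. The fractions did not overlap, and the difference was 2.80 ± 0.458, or 6.97-fold (limma adjusted p = 0.00786). Aldh3a1 (chromosome 11, 61207537 to 61218421), an aldehyde dehydrogenase, was at 7.31, 6.98 and 7.71 against 4.59, 4.87 and 5.62 (4.94-fold, limma adjusted p = 0.00997). Gsta3, a glutathione transferase, was at 7.67, 7.16 and 7.82 against 4.75, 4.77 and 5.73 (5.51-fold, limma adjusted p = 0.0126). Gsta1, which has the near-identical neighbour Gm3776, Gstm3, Gclc, the rate-limiting enzyme of glutathione synthesis, Ugdh and Nqo1 also rose. Hmox1 and Slc7a11, known targets of the NRF2 transcription factor, were near the floor. Hmox1 was at 0 in all IQ3pos libraries and at 0, 1.22 and 1.56 in IQ3neg, and Slc7a11 at 0 in IQ3pos and 0, 0.62 and 0.54 in IQ3neg. Txnrd1, thioredoxin reductase, was well detected and differed by 0.69 (limma adjusted p = 0.335). Nfe2l2, the gene of NRF2 itself, was picked out after its values were seen. It was at 8.73, 8.48 and 9.21 against 5.66, 6.98 and 7.78 (limma adjusted p = 0.0455), and it did not pass when any library but IQ3neg replicate 3 was left out (0.0636 to 0.174). Without IQ3pos replicate 3, no detoxification gene passed, Gsr then being at 0.0553, Aldh3a1 at 0.0598 and Gsta3 at 0.076. Gsta3 was at 0.0622 without IQ3neg replicate 2. Without IQ3pos replicate 1 or 2 or IQ3neg replicate 1 or 2 there were 3, 3, 5 and 2 calls, and without both replicate 1 libraries 1. With the replicate pair as a block, 12 passed.

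**Figure D3:**
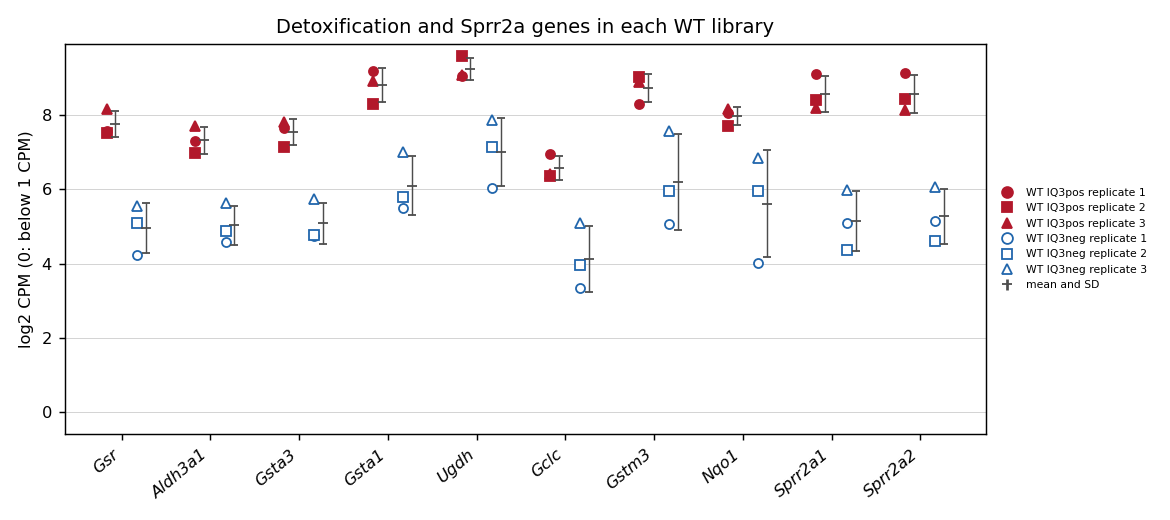
Log2 CPM (y axis) of 8 detoxification genes, Sprr2a1 and Sprr2a2 in each WT library, IQ3pos filled and IQ3neg open, with a symbol shape for each replicate; bars are the mean and SD (n = 3). Gsr lies at 7.53 to 8.17 in IQ3pos and 4.24 to 5.54 in IQ3neg.

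Sprr2a1 and Sprr2a2, small proline-rich proteins of epithelial barriers, were among the 8 higher genes that passed in all 6 leave-one-out fits. Sprr2a1 (chromosome 3, 92215799 to 92221911) was at 9.11, 8.41 and 8.19 in IQ3pos and 5.10, 4.37 and 5.99 in IQ3neg. It was higher in every IQ3pos library, by 3.42 ± 0.479 or 10.7-fold (limma adjusted p = 0.00254). Sprr2a2 gave nearly the same values, 9.13, 8.45 and 8.14 against 5.14, 4.60 and 6.07. The copies overlap on the same strand and are near-identical, so reads may be split between them and they count as 1 observation. Krt5 and Krt14, keratins of squamous epithelium, were listed at 0 in all 6 libraries. Of the 4 called genes listed at 0 in all 3 IQ3neg libraries, Rorb, a nuclear receptor, was at 1.63, 2.52 and 2.82 in IQ3pos, and the chemokine gene Cxcl1 was at 3.33, 1.07 and 3.73. Rorb did not pass when IQ3pos replicate 2 or 3 or an IQ3neg library was left out (adjusted p of 0.0512 to 0.0905). Cxcl1 did not with the replicate pair as a block (0.0502) or when any library but IQ3pos replicate 2 was left out (0.0855 to 0.133).

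Among gastric lineages, calls among pit genes were higher and among chief genes lower in IQ3pos, while parietal and neck genes gave a call only under some alternatives. Of 14 pit genes, 4 rose (Gkn1, Gkn2, Tff1 and Mucl3), with a median of 2.03. Mucl3 (chromosome 17, 35635752 to 35643695), a mucin-like gene, was at 10.09, 10.71 and 11.23 in IQ3pos and 6.99, 8.41 and 9.69 in IQ3neg (4.96-fold, limma adjusted p = 0.0476). The fractions stood apart by a small gap, IQ3neg replicate 3 being close below. None of the 4 passed when IQ3neg replicate 2 or an IQ3pos library was left out, 2 did without IQ3neg replicate 1 and 8 pit genes did without IQ3neg replicate 3. With the replicate pair as a block 8 pit genes rose and 1 fell. Of 12 chief genes 2 fell, Cblif, gastric intrinsic factor, and Chia1, an acidic chitinase. Chia1 (chromosome 3, 106113229 to 106132120) was at 12.38, 10.71 and 10.58 against 14.71, 14.54 and 14.66, with IQ3neg libraries close together and IQ3pos replicate 1 nearest to them (10.6-fold lower, limma adjusted p = 0.044). It passed in none of the 6 leave-one-out fits (0.0677 to 0.196). Rab26, a secretory vesicle gene of the chief list, was at 0 in IQ3pos and 3.40, 3.36 and 3.95 in IQ3neg (limma adjusted p = 0.0578, and 0.0444 with the replicate pair as a block). None of 18 parietal genes passed in limma, but with the replicate pair as a block Car2, a carbonic anhydrase, rose (difference 2.02, limma adjusted p = 0.0455) and Cckbr, the gastrin receptor, fell (-4.26, limma adjusted p = 0.0498). Without IQ3neg replicate 3, 2 parietal genes passed. Their median was 1.27, but 3.10, 0.72 and 0.34 within replicate pairs 1, 2 and 3, so that the highest value came with IQ3neg replicate 1. Tff2, a neck mucosal peptide, was at 11.99, 12.37 and 12.28 against 8.66, 9.83 and 11.09 (limma adjusted p = 0.0519, and 0.0243 with the replicate pair as a block). Of 11 stem and isthmus candidates, Stmn1 rose and Msi1 fell. Stmn1 did not pass when any library but IQ3neg replicate 3 was left out (adjusted p of 0.0607 to 0.172), nor did Msi1 without IQ3neg replicate 2 (0.0594). Lgr5, Sox9 and Cd44 did not pass.

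Genes of endocrine cells were lower in IQ3pos. Endocrine cells store peptides and amines in dense-core granules, where prohormone convertases cut the peptides and granins help pack them. Resp18 (chromosome 1, 75272199 to 75278415), a granule protein of endocrine cells, was at 4.46, 2.84 and 2.71 in IQ3pos and 9.79, 9.59 and 9.34 in IQ3neg. The IQ3neg libraries lay within a narrow range far above IQ3pos, and the difference was -6.24 ± 0.496, or 75.4-fold (limma adjusted p = 3.35e-05). Scg5 (chromosome 2, 113776362 to 113829121), the chaperone of a convertase, was at 3.51, 3.04 and 2.98 against 7.74, 8.09 and 7.86 (26.3-fold lower, limma adjusted p = 0.000342). The granin gene Chgb was at 3.79, 3.10 and 4.08 against 8.62, 9.58 and 8.87 (41.1-fold lower, limma adjusted p = 0.00218). Pcsk2, a prohormone convertase gene with antisense partners, was at 0 in all IQ3pos libraries and at 6.91, 7.26 and 6.03 in IQ3neg (limma adjusted p = 0.000796). The calcium sensor gene Scgn was at 0 against 6.40, 6.77 and 6.06, and Scg3 at 0 against 5.34, 6.15 and 5.60. None of these overlapped between fractions. Of 31 granule and exocytosis genes tested, 13 fell and none rose, with a median of -3.10, and 25 had IQ3pos wholly below IQ3neg, against 8.75% of all genes. The 13 included the convertase gene Pcsk1, the amidating enzyme gene Pam and the exocytosis genes Rab3c, Rims2, Sv2c and Snap25. Of the 33 list members, 15, 19 and 17 were at 0 in IQ3pos replicates 1, 2 and 3. In IQ3neg replicates 1, 2 and 3 these were 1, 3 and 2. Many of the tested genes were thus kept mainly through IQ3neg, which favours a separation of the fractions in this direction. Without IQ3neg replicate 2, 8 fell. Rims2 had an adjusted p of 0.0455, 0.0567 with the replicate pair as a block and 0.0699 to 0.142 in the leave-one-out fits.

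Amine genes fell with the granule genes. Of 8 genes of amine synthesis and storage, 4 fell, with a median of -3.05. Hdc (chromosome 2, 126593667 to 126619299) encodes histidine decarboxylase, which makes histamine in the enterochromaffin-like cells of the corpus. It was at 3.77, 4.23 and 4.23 in IQ3pos and 8.77, 9.88 and 8.67 in IQ3neg. The fractions stood well apart, by -5.03 ± 0.561 or 32.7-fold (limma adjusted p = 0.000661). Slc18a2 (chromosome 19, 59260896 to 59296012), the vesicular carrier VMAT2 that loads histamine, was at 5.76, 6.33 and 6.50 against 9.23, 9.73 and 9.16 (9.09-fold lower, limma adjusted p = 0.0013). Ddc, which makes dopamine and serotonin from their precursors, was at 4.06, 4.13 and 3.29 against 6.41, 7.21 and 6.59 (7.51-fold lower, limma adjusted p = 0.00544). Neither overlapped. Tph1, the first enzyme of gut serotonin synthesis, was at 0, 0 and 0.74 against 3.03, 5.51 and 4.28 (limma adjusted p = 0.0321), and it did not pass when any library but IQ3neg replicate 1 was left out (0.0569 to 0.101).

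Of 12 peptide hormone genes tested, 5 fell (Sst, Ghrl, Gcg, Pyy and Nucb2), and all 5 passed in all 6 leave-one-out fits. Pyy, peptide YY, was at 0, 0.62 and 0 in IQ3pos and 5.41, 7.32 and 5.96 in IQ3neg (limma adjusted p = 0.00197). Nucb2, the precursor of nesfatin-1, was at 6.10, 6.16 and 5.97 against 8.08, 8.69 and 8.46 (5.04-fold lower, limma adjusted p = 0.00254). Both were without overlap, Nucb2 being expressed at a substantial level in both fractions. Ghrl shares its locus with the antisense gene Gm44033, and the sources used here do not give strandedness. Mboat4, the enzyme that acylates ghrelin, was looked up after the values were seen, and was at 0 in IQ3pos and 4.43, 5.16 and 4.43 in IQ3neg (limma adjusted p = 0.0197). It did not pass without IQ3pos replicate 2 or 3 or IQ3neg replicate 2 (0.0664, 0.0728 and 0.0841).

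Endocrine transcription factors gave 3 calls among 13 genes tested, with a median of -1.55. St18, a zinc finger factor, was at 0.62, 1.73 and 1.88 in IQ3pos and 5.62, 6.40 and 6.44 in IQ3neg. The fractions were apart by -4.74 ± 0.617 or 26.8-fold, and the gene passed in all 6 leave-one-out fits (limma adjusted p = 0.00179). Rfx6 was at 0 in IQ3pos and 5.51, 5.48 and 4.86 in IQ3neg (limma adjusted p = 0.00953, and 0.0518 without IQ3neg replicate 2). Pax6 was at 0 against 2.27, 3.11 and 2.13 (limma adjusted p = 0.0177, and 0.0543 and 0.0663 without IQ3pos replicate 2 and 3). Neurod1 was at 0 in IQ3pos and above 0 in all IQ3neg libraries and did not pass (limma adjusted p = 0.0741). Isl1, a factor of several endocrine types, was at 6.95, 6.77 and 6.98 against 6.30, 7.30 and 7.42, with overlap (limma adjusted p = 0.906). Neurog3, which starts the endocrine lineage, was above 0 in 1 library of each fraction. Of 15 endocrine channel and receptor genes, Cckar, Ffar4 and Cacna2d1 fell. Cckar, a receptor of cholecystokinin, was at 4.93, 4.75 and 4.37 against 6.80, 8.22 and 7.29, without overlap (6.73-fold lower, limma adjusted p = 0.0266). None of the 3 passed without IQ3neg replicate 2 or IQ3pos replicate 2 or 3, and 1 did without IQ3pos replicate 1.

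Other genes with the smallest adjusted p were also lower in IQ3pos. Map1b (chromosome 13, 99421446 to 99516540), a microtubule protein best known from neurons, was at 3.78, 2.96 and 3.23 in IQ3pos and 8.98, 9.07 and 8.54 in IQ3neg (-5.54 ± 0.439, 46.5-fold, limma adjusted p = 3.35e-05). Tm4sf4 (chromosome 3, 57425314 to 57441677), a tetraspan membrane protein, was at 4.93, 3.39 and 4.11 against 9.80, 9.61 and 9.04 (-5.34 ± 0.430, 40.5-fold, limma adjusted p = 3.35e-05). Both were tight within IQ3neg and far from IQ3pos. Ncam1, a cell adhesion molecule of neural and endocrine cells, was at 3.57, 1.54 and 1.82 against 8.00, 8.12 and 7.30 (45.0-fold lower, limma adjusted p = 0.000747). Furin (chromosome 7, 80388585 to 80405436), a convertase of the general secretory pathway, was at 5.16, 3.92 and 4.49 against 8.28, 9.96 and 9.27 (25.0-fold lower, limma adjusted p = 0.00103). In neither did the fractions overlap, and all 4 genes passed in all 6 leave-one-out fits. Lhfpl5 was at 0 in IQ3pos and 5.45, 6.51 and 5.63 in IQ3neg, and Pwwp3b at 0 against 5.66, 5.84 and 5.73 (limma adjusted p = 0.00197 each). Genes outside all lists that passed in all 6 leave-one-out fits, picked after their values were seen, included Cplx2, an exocytosis clamp, at 0.62, 0 and 1.24 against 6.55, 7.08 and 6.54. Nupr1, a stress-response gene, was at 7.09, 5.04 and 3.42 against 10.84, 10.71 and 10.21, and Tmed6, a cargo receptor of the secretory pathway, at 7.62, 6.87 and 7.14 against 9.57, 10.29 and 9.86. These too were without overlap.

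**Figure D4:**
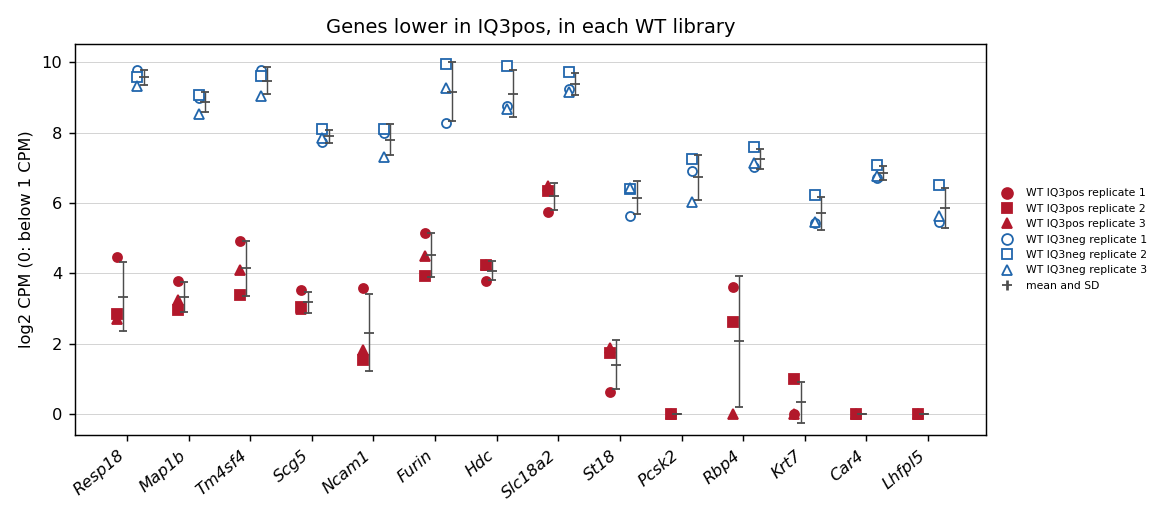
Log2 CPM (y axis; 0 means below 1 CPM) of 14 genes lower in IQ3pos in each WT library, IQ3pos filled and IQ3neg open, with a symbol shape for each replicate; bars are the mean and SD (n = 3). Resp18 lies at 2.71 to 4.46 in IQ3pos and 9.34 to 9.79 in IQ3neg, and Pcsk2, Car4 and Lhfpl5 lie at 0 in all IQ3pos libraries.

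Tuft cell genes were mostly lower in IQ3pos, and 4 of 24 fell (Trpm5, Gfi1b, Vav1 and Bmx). The list median was -2.41, but 0.00, -3.44 and -3.03 within replicate pairs 1, 2 and 3. Bmx (chromosome X, 164192842 to 164258193), a kinase of the TEC family, stood at a mean of 4.16 ± 0.558 in IQ3pos and 6.94 ± 0.809 in IQ3neg, without overlap (6.84-fold lower, limma adjusted p = 0.0126). Gfi1b, a tuft transcription factor, was at 0 in IQ3pos and 3.67, 5.26 and 2.71 in IQ3neg (limma adjusted p = 0.0332). Dclk1, the usual tuft marker, was at 6.26, 3.20 and 1.64 against 5.67, 8.43 and 7.64, replicate pair 1 going the other way, and it did not pass (limma adjusted p = 0.0693, and 0.0316 with the libraries set to the same median). Pou2f3, the tuft master factor, overlapped between the fractions (limma adjusted p = 0.776). Without both replicate 1 libraries 9 tuft genes fell, and without IQ3neg replicate 2 or IQ3pos replicate 2 or 3 none did, with 2 without IQ3neg replicate 3. Gfi1b and Vav1 did not pass without IQ3pos replicate 1 either (0.0755 and 0.052), nor Trpm5 and Gfi1b without IQ3neg replicate 1 (0.0536 and 0.0523). Bmx had adjusted p of 0.0662, 0.0664 and 0.0617 without IQ3neg replicate 2 and IQ3pos replicates 2 and 3. With the libraries set to the same median, 13 fell.

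Digestive enzymes typical of the pancreas were abundant in IQ3neg and lower in IQ3pos. The summed level of the 24 list members was 434577, 133789 and 144677 CPM in IQ3neg replicates 1, 2 and 3. In IQ3pos replicates 1, 2 and 3 it was 41246, 9368 and 8025 CPM. The ranges did not overlap, neither fraction was free of these genes, and replicate 1 was the highest in both. Of 17 genes tested, 9 fell and none rose, with a median of -2.87. Pnliprp1 (chromosome 19, 58728887 to 58744169), a lipase-related protein, was at 5.39, 3.40 and 3.66 in IQ3pos and 10.05, 10.09 and 9.95 in IQ3neg. The IQ3neg libraries were nearly equal, and the difference was -5.88 ± 0.649, or 59.0-fold (limma adjusted p = 0.000628). Pla2g1b, a secreted phospholipase, stood at a mean of 12.02 ± 1.17 against 15.69 ± 0.820, without overlap (12.8-fold lower, limma adjusted p = 0.0148). Cela2a, an elastase gene that overlaps Ctrc, was at 0 in IQ3pos and 4.53, 4.74 and 5.22 in IQ3neg. Cela1 went the other way, at 6.00, 7.45 and 7.10 against 1.40, 6.07 and 6.13, and did not pass (limma adjusted p = 0.219). The acinar genes Cpa1, Cpb1 and Ctrl were listed at 0 in all 6 libraries. Ptf1a, a pancreatic transcription factor gene with an antisense partner, was picked after its values were seen, and stood at 0, 0 and 1.79 against 6.31, 6.75 and 5.70 (limma adjusted p = 0.00786, and 0.0589 without IQ3neg replicate 2). Whether pancreatic cells or their RNA had a part in this difference was not tested. Without IQ3pos replicate 2 or 3 or IQ3neg replicate 2 the list kept 3, 4 and 3 calls. Pla2g1b then had adjusted p of 0.119, 0.136 and 0.0546, and Cela2a had 0.0584 without IQ3neg replicate 2.

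Secreted plasma proteins, typical products of the liver, gave 5 calls among 17 genes tested, all lower in IQ3pos (Ttr, Serpina1b, Serpina7, Rbp4 and Ahsg). Ttr, the thyroid hormone and retinol carrier transthyretin, was at 6.87, 6.91 and 6.73 in IQ3pos and 9.16, 9.55 and 8.82 in IQ3neg, tight in both and without overlap (5.06-fold lower, limma adjusted p = 0.00254). Rbp4, its retinol-binding partner, was at 3.61, 2.62 and 0 against 7.03, 7.58 and 7.15 (limma adjusted p = 0.00451). Ahsg, fetuin A, was at 0 against 5.50, 6.16 and 5.83 (limma adjusted p = 0.00197). Serpina1b did not pass without IQ3neg replicate 2 or IQ3pos replicate 2 or 3 (adjusted p of 0.0633, 0.0543 and 0.0635), and the other 4 passed in all 6 leave-one-out fits. Alb, albumin, overlapped between the fractions (limma adjusted p = 0.566), and the fibrinogen genes Fga, Fgb and Fgg were listed at 0 in all 6. Gc, the vitamin D carrier, and Vtn, vitronectin, were picked after their values were seen, and stood at 4.85, 0 and 0 against 8.93, 9.71 and 9.50 and at 0, 1.11 and 0 against 7.18, 8.15 and 7.38. Car4 (chromosome 11, 84957786 to 84966044), a membrane-bound carbonic anhydrase, was at 0 in IQ3pos and 6.71, 7.10 and 6.77 in IQ3neg (limma adjusted p = 0.000981). Krt7 (chromosome 15, 101411043 to 101430313), a keratin of simple ducts, was at 0, 0.99 and 0 against 5.43, 6.24 and 5.45 (limma adjusted p = 0.00197). Both were far apart between the fractions, and both passed in all 6 leave-one-out fits.

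Markers of other cells a sort could hold were low or at 0 in most libraries. The summed level ran from 40.3 to 333 CPM in IQ3pos and 102 to 534 CPM in IQ3neg for 24 immune genes, from 4.99 to 16.9 and 4.21 to 36.8 for 13 fibroblast and muscle genes, and from 1.01 to 18.5 and 7.54 to 29.9 for 8 endothelial genes. None of these lists gave a call in limma, though 1 immune gene passed without IQ3pos replicate 1 or IQ3neg replicate 3 and 1 endothelial gene with the libraries set to the same median. The T and B cell markers Cd3e, Cd8a and Ms4a1 and the muscle markers Des and Myh11 were listed at 0 in all 6. Plasma cell genes differed more. Igha, Jchain and Igkc fell, and 6 of 6 tested genes had IQ3pos wholly below IQ3neg, against 8.75% of all genes. Of the 12 list members, 9, 10 and 12 were at 0 in IQ3pos replicates 1, 2 and 3. The tested genes were thus kept mainly through IQ3neg, which favours such separation. The summed level of the 12 was 0 to 63.2 CPM in IQ3pos and 305 to 1051 CPM in IQ3neg. Jchain, which joins secreted IgA, was at 3.68, 0 and 0 against 7.61, 6.01 and 5.83 (limma adjusted p = 0.0126). These calls were lost without IQ3pos replicate 2 or 3 or IQ3neg replicate 2, and 1 was left without IQ3neg replicate 1. Of the neuron and glia list, Elavl4 and Uchl1, which endocrine cells also express, passed (limma adjusted p = 0.0459 and 0.0396) but not with the replicate pair as a block (0.0526 and 0.0525). Uchl1 passed in none of the leave-one-out fits (0.053 to 0.119), and Elavl4 only without IQ3neg replicate 1 (0.0813 to 0.137 in the others). Gfap and Phox2a were at 0 in all 6. The part of such cells in the lower genes was not tested.

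The same sort of R122C cells gave smaller counts. Both R122C replicate 1 libraries carry the title code of WT replicate pair 2, and the labels do not say what that code stands for, so the genotypes share no library but may not be independent. With 2 libraries a fraction, 49 genes were called there, 0.31% of those tested, and all 49 were called in WT in the same direction, 2 higher and 47 lower. The 2 higher genes were Asf1b and Top2a. Both contrasts took their spread from 1 fit of all 10 libraries, and the genes were kept by their WT levels. The overlap of calls is therefore not independent support. The count was 25, 19 and 23 without WT IQ3pos replicate 2, WT IQ3neg replicate 2 or WT IQ3neg replicate 3. It was 30, 16, 2 and 8 without R122C IQ3pos replicate 1 or 2 or R122C IQ3neg replicate 1 or 2, an alternative chosen after seeing the data that takes a lone library to vary like the other groups. Of the 144 genes higher in WT, 140 were above 0 in R122C, with a median difference of 1.69, and of the 281 lower genes 258 were below 0, with a median of -3.34. Across all genes tested 51.3% were above 0 and 40.7% below in R122C. Smc2 was at 7.36 and 6.62 in R122C IQ3pos and 4.79 and 4.85 in R122C IQ3neg, a difference of 2.17 against 4.05 in WT. Oip5 was at 6.27 and 6.80 against 3.60 and 4.55, and Asf1b at 9.18 and 8.34 against 5.89 and 6.46, a difference of 2.59 (limma adjusted p = 0.0484) against 2.76 in WT. Map1b differed by -5.32 (0.001), Tm4sf4 by -4.58 (0.0021), Scg5 by -4.88 (0.00303) and Chgb by -7.06 (0.00323), and each of these passed in limma. Krt7 was at 2.69 and 3.17 against 5.66 and 4.89 and did not pass (-2.34, limma adjusted p = 0.462). In all of these the R122C fractions did not overlap. With 2 libraries a fraction such separation is easily reached, and its share over all genes in R122C was not counted. The WT difference was the larger for 142 of the 144 higher and 217 of the 281 lower genes, which were chosen by their WT difference. A test of the difference between genotypes called 0 genes in limma, with a smallest adjusted p of 0.99999. In that test 371 of the 15820 genes had an unadjusted p under 0.05, which is a share below 0.05.

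**Figure D5:**
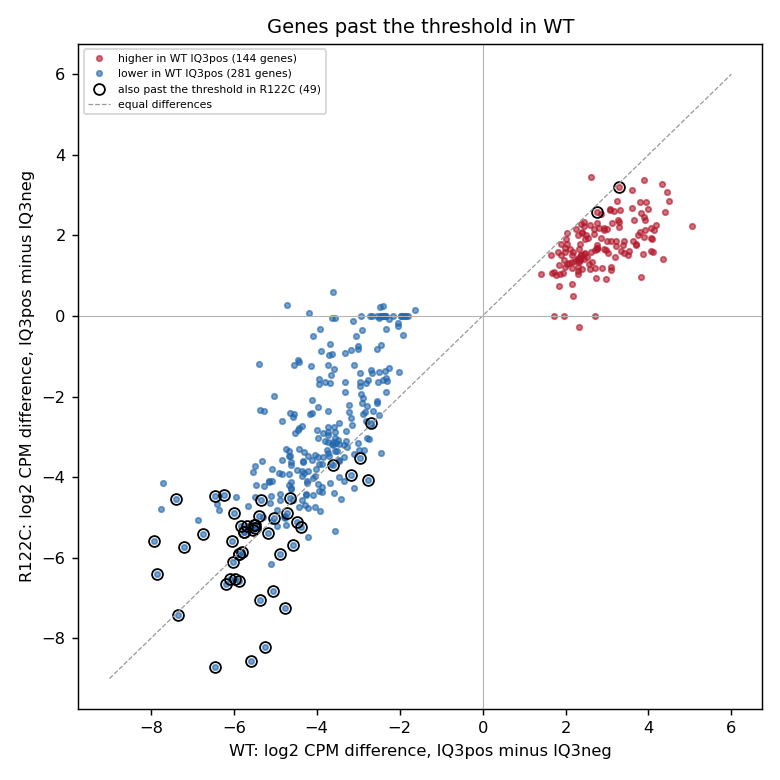
Log2 CPM difference, IQ3pos minus IQ3neg, in R122C (y axis) against WT (x axis) for the genes past the threshold in WT, 144 higher and 281 lower; rings mark the 49 genes also past it in R122C and the dashed line marks equal differences. Points lie mostly in the quadrants of equal sign, 140 of the higher and 258 of the lower genes.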

How the data were processed

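RNA of 10 libraries from sorted corpus cells, amplified by PCR before sequencing per the labels' protocols, was analysed from 1 table. The authors deposited log2 CPM values for 55276 genes. Judged by the values, no pseudocount was added to the deposited log2 scale, and genes below 1 CPM are listed at 0, so a difference against a 0 depends on that floor. The tools named per the submitters' processing notes are edgeR, featureCounts, Subread 2.0.0 and STAR 2.7.1a, and the build is GRCm38 (mm10). The sources used here do not give strandedness, filters or scaling, so overlapping, antisense and near-identical genes share uncertain reads. The CPM of a library were whole multiples of 1 step for 100% of values, within 0.05 read, which gave its total; 1 CPM stood for 47.4 to 265 reads. Summed over the listed genes, CPM came to slightly more than the base of the unit, and the sources used here do not say why. Reads amplified by PCR are not independent molecules, and depth covers counting error only.

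Differences were fitted with limma 3.58.1 in R 4.3.3 on the log2 values of all 10 libraries, with 4 group means and moderation by an intensity trend (degrees of freedom 6 residual, 7.12 prior), since sharing the spread lets R122C groups of 2 be tested. Genes above 0 in at least 2 of the 6 WT libraries were kept, 15820 in all. Two-sided p-values were adjusted by Benjamini-Hochberg over all genes, with a threshold of 0.05. A fold is 2 raised to the mean log2 difference. The p-values reflect spread among pools of mice, not among single animals. Libraries with the same title code deviated together from their group means over 8057 genes (correlations of 0.189, 0.136 and 0.115 for replicates 1, 2 and 3), so the libraries of a replicate were taken as pairs, and the fit with the replicate pair (set within a genotype) as a block is given where it changes the call of a gene named in the text or moves the count of a list described there by over 1.5 times. The labels do not say what the code stands for.

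Members, the 39 lists (811 genes) and tests were chosen with earlier results of these data known, and list counts are no independent support. Named were the 15 higher and 15 lower called genes above 0 in all 6 WT libraries with the smallest adjusted p, the 10 called genes with the highest mean among those at 0 in 1 fraction, called list members and defining markers; predicted genes, pseudogenes and 26 symbols turned into dates were not named, and genes named outside this rule are said to be. Coordinates came from a GENCODE annotation of GRCm38, matched by symbol for 53362 genes, and promoters from RefSeq (GRCm38.p6). Figures and counts used Python 3.11.15 with pandas 2.3.3, numpy 2.4.6 and matplotlib 3.10.9. Alternatives covered samples, block, scaling, floor, filter, moderation and left-out libraries. Proteins were not used here.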

Additional observations from a re-analysis of the deposited data

How the results depend on the processing

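Of the 425 genes called in WT, 0 turned their sign under the WT alternatives, which reuse the libraries that chose these genes. Some genes not called did, such as Epcam with centred libraries. Against 144 genes higher and 281 lower, the 6 WT libraries alone gave 36 and 107, a filter of genes above 0 in at least 1 WT library 52 and 172, and a filter of genes above 0 in all 6 gave 254 and 76, fewer genes at the floor being tested. The replicate block gave 280 higher and 262 lower. Libraries centred on their medians, with values listed at 0 kept at 0, gave 197 higher and 610 lower. Leaving out 1 WT library gave 19 to 248 higher and 92 to 338 lower. Of 142 named genes, 78 kept their side of the threshold with the 6 WT libraries alone, 84 with the at-least-1 filter, 110 without the intensity trend, 86 without both replicate 1 libraries and 51 to 123 with 1 WT library left out. The block ended 4 named calls (Cxcl1, Uchl1, Rims2 and Elavl4), and no other named call. The R122C count of 49 was 76 with centred libraries, 78 with centred libraries among genes above 0 in all 6, 30 with the at-least-1 filter, 119 without the trend and 2 to 57 with 1 library left out. The difference between genotypes gave 0 calls in limma under each. The list medians of carbonic anhydrases (-1.01) and plasma proteins (-0.99) became 1.67 and 1.08 with the filter of genes above 0 in all 6. The cause of these shifts was not tested. The floor of 1 CPM limits what is known of genes listed at 0.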
